A study of Mus musculus with 6 samples.

Results

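The Ighv1 family, also called J558, is the largest family of variable (V) gene segments in the mouse immunoglobulin heavy chain locus. Its members were taken as every row of the deposited expression table whose Ensembl identifier carries a symbol beginning with "Ighv1-" in the GENCODE M21 annotation, which gave 47 of 14864 rows. M21 lists 93 Ighv1 genes, and the 46 that are not among the rows were not analysed here. Of the 47, 45 are annotated as V genes and 2, Ighv1-2 and Ighv1-38, as V pseudogenes. All 47 had reads in each of the 6 libraries and passed the filter on low values, a mean of at least 10 over the libraries.

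RNA sequencing compared marginal zone B cells, the B cells at the edge of the splenic white pulp, flow-sorted from spleens of C57BL/6 mice aged 8 weeks. The wild type (WT) is represented by 3 libraries, and 3 more carry the label conditional knockout (cKO) of CK2α, a catalytic subunit of the protein kinase CK2 that is encoded by Csnk2a1. The labels leave out the Cre driver, the deleted exons, the sort gates, the sex of the mice and whether each library came from its own mouse. The p-values therefore measure a spread between libraries that may be technical. Csnk2a1 itself read 4069, 3861 and 3939 normalised reads in the WT libraries and 4124, 3951 and 4060 in the libraries labelled cKO, a log2 difference of 0.03 ± 0.05 (SE, limma adjusted p = 0.734). The transcript level therefore did not separate the groups, and reads over the deleted exons were not analysed here, so "cKO" below means the library so labelled. The reads recovered from the deposited rows came to 18778776 to 23503756 for each library. On B cell subset markers, cKO replicate 2 stood apart from the other cKO libraries and closer to WT: 7 follicular markers summed to 43726 normalised reads in it, against 35081 and 34824 in cKO replicates 1 and 3 and 44433 to 48536 in WT.

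A B cell makes its heavy chain by joining 1 V segment to a D and a J segment, and transcription from the promoter of the chosen V segment then runs through to the constant exons. The chosen segment encodes the first and second complementarity-determining regions, loops of the antibody that touch antigen. Ighv1 segments lie mainly in the part of the locus far from the D segments, and their use is known to depend on contraction of the locus, for which the B cell factor Pax5 and the factor YY1 are needed. In a sorted population, the RNA of a segment reflects both how many cells use it and how much heavy chain RNA each makes; in these bulk libraries the 2 cannot be told apart.

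Between the groups 3 members rose and 3 fell, and their reference sequences are shown here because those that rose are close relatives. The stretches below are bases 76 to 198 of the V region in the GENCODE M21 transcripts, 5′ to 3′ on the coding strand, and cover the first and second complementarity-determining regions, where segments differ most. Capitals mark the bases that differ from Ighv1-26, the most abundant member, whose whole V region, 294 bases, comes first with this stretch in capitals. The order is then the other members that were higher in cKO (Ighv1-18 and Ighv1-22), their close relative Ighv1-19, the members that were lower (Ighv1-15, Ighv1-50 and Ighv1-53), and Ighv1-82, the second most abundant member.
Ighv1-26, whole V region: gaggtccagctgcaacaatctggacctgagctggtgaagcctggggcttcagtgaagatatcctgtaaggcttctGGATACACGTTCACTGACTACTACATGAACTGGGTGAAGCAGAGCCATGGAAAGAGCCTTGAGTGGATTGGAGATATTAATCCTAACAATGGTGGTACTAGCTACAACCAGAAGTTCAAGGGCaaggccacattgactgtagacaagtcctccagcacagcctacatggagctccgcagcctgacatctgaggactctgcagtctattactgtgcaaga
Ighv1-26: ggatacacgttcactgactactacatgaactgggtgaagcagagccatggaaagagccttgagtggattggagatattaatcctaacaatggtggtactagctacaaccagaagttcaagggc
Ighv1-18: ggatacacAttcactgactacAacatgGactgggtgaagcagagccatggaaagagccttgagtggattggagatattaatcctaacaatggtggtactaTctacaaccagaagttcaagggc
Ighv1-22: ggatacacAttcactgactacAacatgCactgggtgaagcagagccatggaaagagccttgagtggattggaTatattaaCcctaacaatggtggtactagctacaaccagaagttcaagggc
Ighv1-19: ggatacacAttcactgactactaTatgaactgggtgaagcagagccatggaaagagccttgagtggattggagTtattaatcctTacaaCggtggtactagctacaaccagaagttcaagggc
Ighv1-15: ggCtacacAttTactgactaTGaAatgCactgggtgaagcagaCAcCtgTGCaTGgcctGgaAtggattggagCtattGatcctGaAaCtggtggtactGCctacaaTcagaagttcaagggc
Ighv1-50: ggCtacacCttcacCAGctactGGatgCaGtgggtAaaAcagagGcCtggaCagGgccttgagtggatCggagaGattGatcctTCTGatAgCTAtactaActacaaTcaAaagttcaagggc
Ighv1-53: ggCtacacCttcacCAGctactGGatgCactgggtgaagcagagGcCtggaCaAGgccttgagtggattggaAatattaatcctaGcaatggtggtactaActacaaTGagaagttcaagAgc
Ighv1-82: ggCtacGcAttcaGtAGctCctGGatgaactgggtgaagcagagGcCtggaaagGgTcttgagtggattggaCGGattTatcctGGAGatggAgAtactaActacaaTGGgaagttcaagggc
Within this stretch of 123 bases, Ighv1-18 differed from Ighv1-26 at 4 bases, Ighv1-22 at 5 and Ighv1-19 at 5. Ighv1-53 differed at 19, Ighv1-15 at 25, Ighv1-82 at 27 and Ighv1-50 at 29. These are germline reference sequences, not sequences read from the mice. All these genes lie on the minus strand of chromosome 12. In M21, whose build is GRCm38, Ighv1-26 spans chr12:114788372-114788805, Ighv1-18 chr12:114682632-114683065 and Ighv1-22 chr12:114746273-114746706. Ighv1-15 spans chr12:114657353-114657786, Ighv1-50 chr12:115119748-115120219 and Ighv1-53 chr12:115158403-115158835. The submitters' processing notes name mm9, so these positions belong to the reference and not to the deposited table.

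The question put to the table was which Ighv1 segments were more or less abundant in marginal zone B cells labelled cKO than in WT cells. Values are the deposited normalised reads, that is reads divided by a factor for each library. Differences are log2(value + 1) in cKO less that in WT, each with its SE. "Rose" and "fell" are used of a segment only where limma's adjusted p, taken over the 14855 genes tested, was under 0.05. Of the 47 members, 3 rose and 3 fell, which is 12.8%, against a background of 10.1% of all genes called. By direction, 6.38% of members rose against 5.08% of all genes, and 6.38% fell against 4.97%. The share of members called was therefore near that of the genome. Their median log2 difference was -0.02, against -0.0009 for all genes, with 20 members above 0 and 27 below. The median size of the difference was 0.23 in the family and 0.16 over all genes.

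Ighv1-26, Ighv1-18 and Ighv1-22 rose. Ighv1-26 read 817, 776 and 698 in the WT libraries and 914, 1123 and 1075 in the cKO libraries, so that every cKO library lay above every WT library. Its mean went from 764 ± 60.2 (SD, n = 3) to 1037 ± 110, a log2 difference of 0.44 ± 0.09 (limma adjusted p = 0.0157). It was the most abundant Ighv1 segment in each of the 6 libraries. Ighv1-18 read 239, 263 and 300 in WT and 371, 479 and 365 in cKO, again without overlap. This was the largest rise in the family, 0.59 ± 0.13 (limma adjusted p = 0.0193), from 268 ± 30.7 to 405 ± 63.9. Ighv1-22 read 306, 329 and 301 in WT and 390, 444 and 396 in cKO. Its groups were also apart, with a log2 difference of 0.39 ± 0.09 (limma adjusted p = 0.0252) and means of 312 ± 14.6 and 410 ± 29.6. In all 3 segments cKO replicate 2, the library that stood apart on subset markers, was the highest. Without it the log2 differences were 0.46 for Ighv1-18, 0.38 for Ighv1-26 and 0.33 for Ighv1-22, and the first and second of these passed (limma adjusted p = 0.0338 and 0.0279). The call of Ighv1-18 was lost without WT replicate 1 (limma adjusted p = 0.0796), and that of Ighv1-26 without WT replicate 3 (0.0700) or cKO replicate 3 (0.0640). Ighv1-22 missed the threshold without WT replicate 1 (0.0862), WT replicate 3 (0.0964), cKO replicate 2 (0.0586) or cKO replicate 3 (0.0676), while all its log2 differences stayed between 0.33 and 0.44.

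Ighv1-15, Ighv1-50 and Ighv1-53 fell. Ighv1-15 read 303, 329 and 274 in WT and 173, 209 and 238 in cKO, a log2 difference of -0.55 ± 0.13 (limma adjusted p = 0.0276). Its mean went from 302 ± 27.5 to 207 ± 32.8, and the highest cKO library stayed under the lowest WT library. Ighv1-50 read 271, 286 and 258 in WT and 185, 207 and 176 in cKO, with no overlap. Its log2 difference was -0.52 ± 0.11 (limma adjusted p = 0.0176), between means of 272 ± 13.7 and 189 ± 15.6. Ighv1-53, the third most abundant member, read 513, 508 and 482 in WT and 435, 388 and 397 in cKO. This fall was smaller, -0.30 ± 0.08 (limma adjusted p = 0.0440), from 501 ± 16.4 to 407 ± 25.1. Without WT replicate 1, 2 or 3, limma called no member lower (with all 6 libraries, 12 of the 47 members passed an unadjusted p of 0.05 in either direction, against 26.8% of all genes). Ighv1-50 then reached limma adjusted p values of 0.0643, 0.0510 and 0.0538, and 0.0674 without cKO replicate 3. Ighv1-15 reached 0.0972, 0.0832 and 0.0622, and 0.0655 without cKO replicate 1, whereas Ighv1-53 reached 0.137, 0.101 and 0.0983, and 0.0872 and 0.131 without cKO replicates 2 and 3. Ighv1-53 also missed the threshold with DESeq2 (adjusted p = 0.0589) and, in a limma fit scaled to the summed heavy chain V reads that was added after the values had been seen, at an adjusted p of 0.211.

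**Figure D1:**
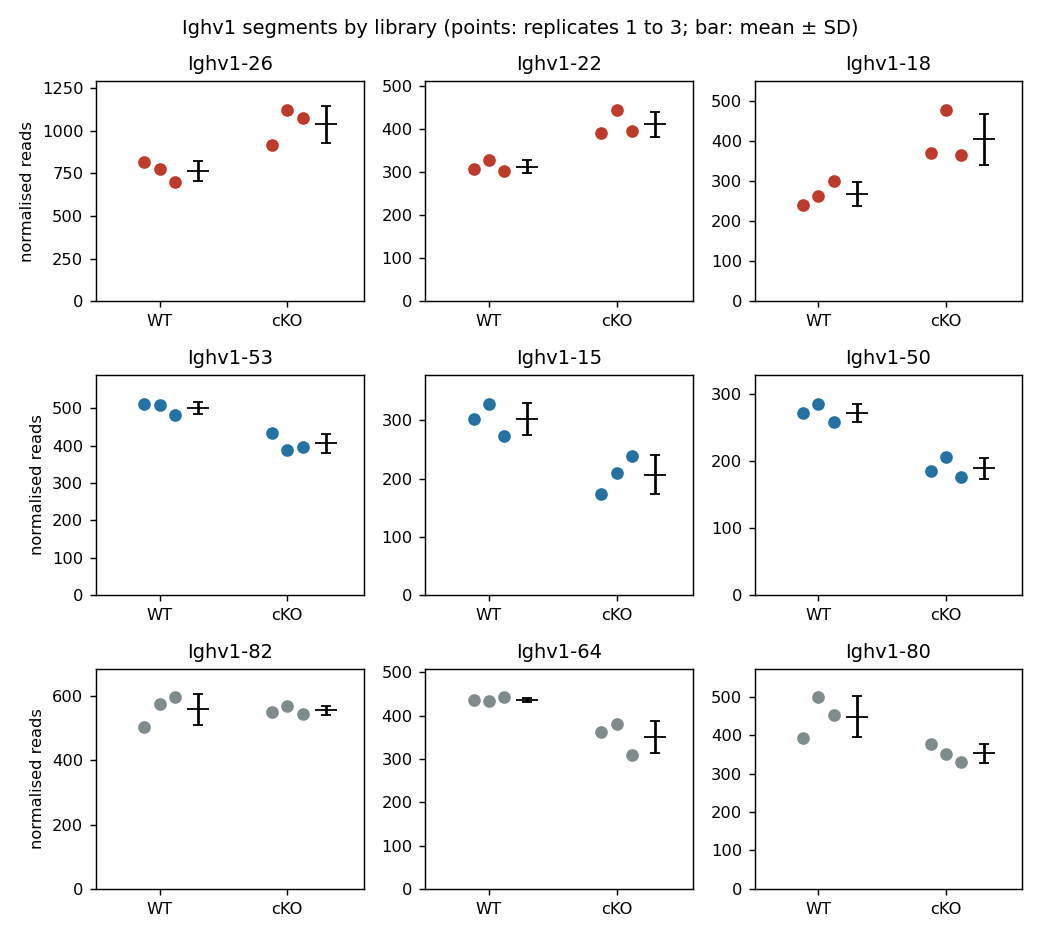
Normalised reads (vertical axes, from 0) of 9 Ighv1 segments in the 3 WT and 3 cKO libraries, with points for replicates 1 to 3 from left to right and a bar for the mean ± SD. Red segments rose, blue segments fell and grey segments did not pass the threshold; in Ighv1-82 the groups overlap, while in Ighv1-64 and Ighv1-80 they do not overlap.

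Other abundant segments lay lower in cKO without passing the threshold. Ighv1-64 read 436, 433 and 442 in WT and 362, 380 and 309 in cKO, a log2 difference of -0.32 ± 0.10 (limma adjusted p = 0.0573), and it passed without cKO replicate 2 (limma adjusted p = 0.0362). Ighv1-80 read 392.0, 498 and 453 in WT and 378, 351 and 330 in cKO, a difference of -0.34 ± 0.11 (limma adjusted p = 0.0666). Ighv1-9 read 422, 431 and 398 in WT and 306, 376 and 351 in cKO, a difference of -0.28 ± 0.10 (limma adjusted p = 0.0974). Ighv1-69 read 307, 307 and 264 in WT and 264, 255 and 223 in cKO, a difference of -0.24 ± 0.11 (limma adjusted p = 0.193). In each of these 4 the groups were apart, though in Ighv1-69 by less than 1 normalised read. Ighv1-55 read 332, 412 and 374 in WT and 316, 351 and 324 in cKO, with overlap, a difference of -0.17 ± 0.10 (limma adjusted p = 0.321). Ighv1-82 differed from these. It read 504, 576 and 596 in WT and 551, 570 and 545 in cKO, a log2 difference of -0.006 with a 95% interval from -0.19 to 0.18 (limma adjusted p = 0.975).

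Counted by overlap, the WT and cKO libraries were fully apart in 15 of the 47 members, or 31.9%, against 31.6% of all genes. The cKO libraries were higher in 4 of these, the 3 that rose and Ighv1-62-2, against 15.9% of all genes in that direction. They were lower in 11, against 15.6% of all genes. All 6 calls fell among the 23 members with a mean of at least 100 normalised reads (26.1%), and none among the 24 members below it. The share of all genes called, 10.1%, covers all levels and was not split at 100. Of the 14 members with means from 200 to 1000, a range chosen after the values had been seen, 6 were called (42.9%) and 11 were without overlap (78.6%). Among all 4399 genes in that range, 10.7% were called and 32.7% were without overlap. Precision was lower where depth was lower. The lowest member, Ighv1-49, had 76 reads over the 6 libraries, and its log2 difference of 0.31 had an SE of 0.47.

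**Figure D2:**
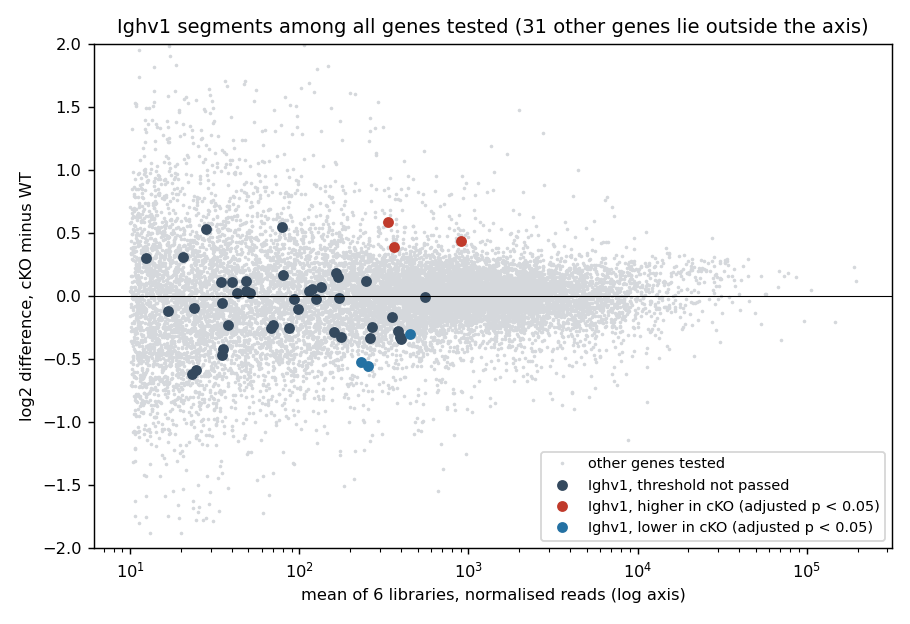
Log2 difference, cKO minus WT, against the mean of the 6 libraries in normalised reads (log axis) for all genes tested (grey) and the 47 Ighv1 segments (dark, or red and blue where called). The 6 called segments have means between 230 and 900, and 31 other genes lie beyond the vertical axis.

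The segments with the largest differences beyond these were rare ones. Ighv1-74 read 67.0, 49.5 and 74.3 in WT and 91.8, 116 and 73.3 in cKO, a log2 difference of 0.54 ± 0.22 (limma adjusted p = 0.146). Ighv1-62-2 read 22.0, 26.3 and 19.6 in WT and 27.6, 33.2 and 39.2 in cKO, a difference of 0.54 ± 0.27 (limma adjusted p = 0.222). On the other side, Ighv1-36 differed by -0.62 ± 0.32 (limma adjusted p = 0.247) and the pseudogene Ighv1-38 by -0.58 ± 0.27 (limma adjusted p = 0.197). Ighv1-38 read 25.3, 31.6 and 31.3 in WT and 22.3, 16.1 and 19.6 in cKO. Ighv1-63 differed by -0.47 ± 0.26 (limma adjusted p = 0.269), at 35.1, 53.7 and 34.2 in WT and 29.4, 31.3 and 25.8 in cKO. None of these passed the threshold, and their standard errors, 0.22 to 0.32, were above the 0.08 to 0.13 of the called segments.

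Single libraries stood out mainly in rare segments. Ighv1-49 read 20.5 in WT replicate 3 against a median of 9.29 in the other 5 libraries, the widest such gap in the family, 1.07 on the log2(value + 1) scale. Ighv1-36 read 39.0 in WT replicate 2 against a median of 20.5, Ighv1-63 read 53.7 there against 31.3, and Ighv1-31 read 27.4 there against 16.1. The fifth was Ighv1-18, whose highest library, cKO replicate 2, read 479 against 300. For Ighv1-18 the gap was 0.67.

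The summed level of the family overlapped between the groups. It was 7658, 8408 and 7848 normalised reads in the WT libraries and 7370, 8348 and 7586 in the cKO libraries, with means of 7971 ± 390 and 7768 ± 513. Ighv1 segments held 50.05 ± 1.07% of all heavy chain V reads in WT and 50.46 ± 0.276% in cKO. The other 49 heavy chain V segments summed to 7955 ± 339 and 7625 ± 487, and of them 0 rose and 1 fell (12 of 49 at an unadjusted limma p under 0.05). Among the 98 kappa light chain V segments 5 rose and 14 fell, 5.10% and 14.3%, against 5.08% and 4.97% of all genes. Of the other heavy chain V segments 2.04% were called, against 10.1% of all genes. Ighv1 segments together held 0.0386 ± 0.00185% of all reads in WT and 0.0373 ± 0.00249% in cKO.

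Within the family the reads moved between members. Ighv1-26 held 10.7, 9.23 and 8.90% of the Ighv1 reads in the WT libraries and 12.4, 13.5 and 14.2% in the cKO libraries, 9.60 ± 0.941% against 13.3 ± 0.893%. Together the 3 members that rose went from 16.9 ± 0.809% to 23.8 ± 0.955%, and the 3 that fell from 13.5 ± 0.647% to 10.4 ± 0.637%, shares that follow from the calls and are given as a description. Ighv1-22 was the steadiest of them, at 3.92 ± 0.0810% in WT and 5.28 ± 0.0524% in cKO. Ighv1-82 held 7.01 ± 0.522% and 7.16 ± 0.327%. The effective number of members, the number of equally used segments that would give the same evenness, was 30.4 ± 0.689 in WT and 29.2 ± 0.364 in cKO. This small drop came with Ighv1-26: over the other 46 members the effective number was 0.41 higher in cKO. Across members, libraries of 1 group correlated at 0.960 to 0.983 (Pearson, 6 pairs over 47 segments on the log2 scale) and libraries of different groups at 0.951 to 0.974 (9 pairs), so most of the ranking was common to all 6.

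**Figure D3:**
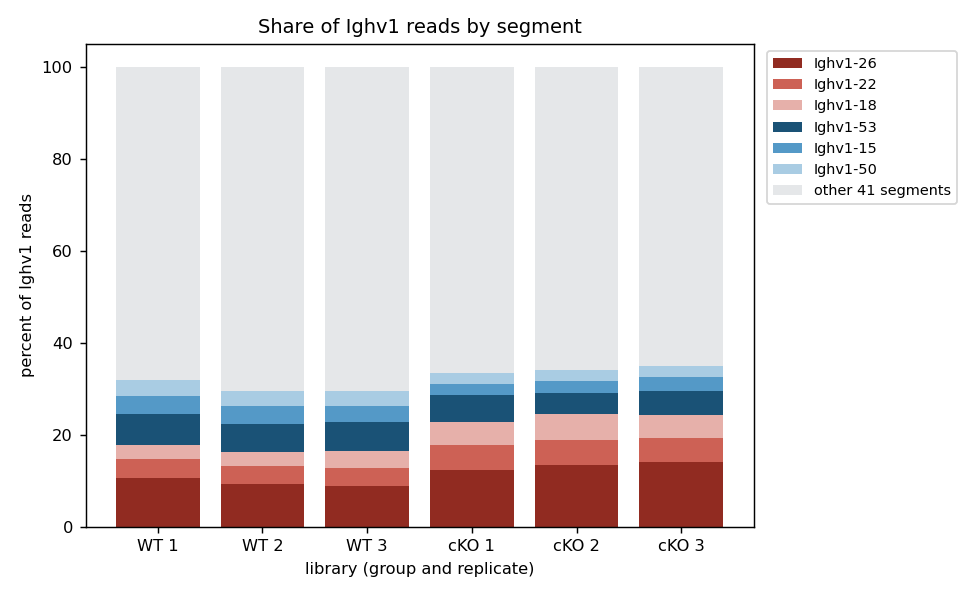
Percent of all Ighv1 reads (vertical axis, from 0) held by each of the 6 called segments and by the other 41 segments together, 1 bar for each library. The red segments (Ighv1-26, Ighv1-22 and Ighv1-18) together take 16.3 to 17.8% of each WT bar and 22.7 to 24.5% of each cKO bar.

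Per kilobase of exon, which corrects for exon length but not for reads shared between segments, Ighv1-26 was the most abundant at 2565 normalised reads per kilobase. Ighv1-82 followed at 1443 and Ighv1-53 at 1293. Then came Ighv1-80 at 1141, Ighv1-9 at 1084, Ighv1-22 at 1029, Ighv1-64 at 972 and Ighv1-18 at 958. The median member stood at 265 and the lowest, Ighv1-49, at 35.3. Exon lengths ran only from 349 to 415 bases, so the order by level and the order per kilobase were nearly the same.

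The members that rose are close relatives in sequence. Ighv1-18, Ighv1-22 and Ighv1-26 differed from each other at 8 to 11 of the 294 V region bases, an identity of 96.3 to 97.3%. Between a member that rose and a member that fell the identity was 84.0 to 87.8%, and among the members that fell it was 83.7 to 91.5%. When segments that differ by 12 bases or fewer were joined, 22 of the 45 V genes fell into 8 groups, and Ighv1-18, Ighv1-19, Ighv1-22, Ighv1-26 and Ighv1-34 formed 1 of them. This group was examined after its members' values had been seen. Ighv1-19 differed by 0.19 ± 0.18 (limma adjusted p = 0.541) and Ighv1-34 by 0.03 ± 0.27 (limma adjusted p = 0.964), so all 5 lay above 0 and 3 had risen. Their summed level was 1536, 1631 and 1461 in the WT libraries and 1889, 2272 and 2048 in the cKO libraries, 1543 ± 85.2 against 2070 ± 193, without overlap. Sums were also without overlap, and lower in cKO, in the groups of Ighv1-50 (722 against 622), Ighv1-53 (1175 against 1017) and Ighv1-52 (417 against 354). In the pair Ighv1-62-2 and Ighv1-71 they were higher in cKO without overlap (61.1 against 75.1). Sums overlapped in the groups of Ighv1-4, Ighv1-75 and Ighv1-80. Within 25 bases of Ighv1-26 lay 10 of the 45, itself included, and all 3 that rose were among them. Among the 35 more distant segments 0 had risen and 3 had fallen. The distance is counted from a segment that itself rose, so these counts are a description and test nothing. The cut lies in a gap between Ighv1-20 at 24 bases and Ighv1-77 at 33. Ighv1-36, 18 bases away, had a log2 difference of -0.62 with a 95% interval from -1.33 to 0.09, and -0.38 without WT replicate 2.

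**Figure D4:**
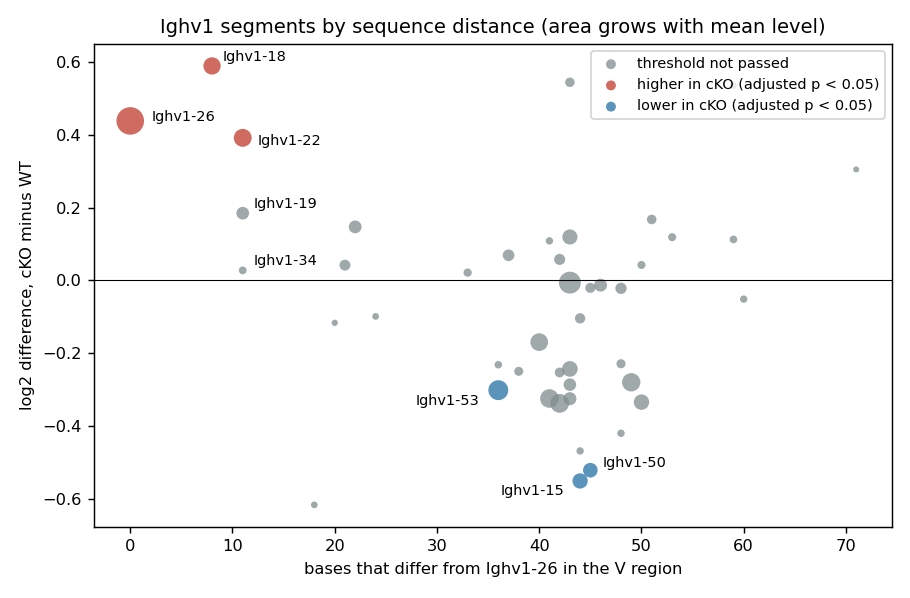
Log2 difference, cKO minus WT, of the 45 Ighv1 V genes against the number of the 294 V region bases that differ from Ighv1-26; the area of a point grows with the mean level, and colours mark the calls. The 3 red segments lie within 11 bases of Ighv1-26, and the 3 blue segments lie 36 to 45 bases away.

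Other groups of near relatives varied. The groups of Ighv1-50, Ighv1-53 and Ighv1-75 (with Ighv1-84) held members on both sides of 0. In the pairs Ighv1-52 and Ighv1-61, Ighv1-4 and Ighv1-7, and Ighv1-80 and Ighv1-82, 0 members lay above 0. In the pair Ighv1-62-2 and Ighv1-71 both did. Ighv1-50 fell, and its group of near relatives with Ighv1-59, Ighv1-69 and Ighv1-74 held both the fall of -0.52 and the 0.54 of Ighv1-74. Ighv1-53 fell by 0.30 on the log2 scale, whereas its relative Ighv1-72 differed by 0.12 ± 0.13 (limma adjusted p = 0.604). Over all pairs of the 45 segments, the median gap between the 2 log2 differences was 0.32 for the 18 pairs that differed by 12 bases or fewer, 0.25 for 127 pairs at 13 to 30 bases and 0.30 for 845 pairs beyond that. Ighv1-62-2 and Ighv1-71 have identical V regions and differed by 0.54 ± 0.27 and 0.11 ± 0.22, at means of only 28.0 and 40.1 normalised reads. These relatives (Ighv1-4, Ighv1-7, Ighv1-52, Ighv1-59, Ighv1-61, Ighv1-71, Ighv1-72, Ighv1-75, Ighv1-84) were named after their values had been seen.

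Similar segments are also where counting is least certain, because a read that fits 2 segments equally can be dropped, split or given to either, and how the authors' counting treated such reads is not stated. Of the 50-base stretches in a member's transcript, a median of 33.4% also occurred in another heavy chain V transcript, with a range from 0 to 97.4%. The share was 49.0% for Ighv1-26, 35.8% for Ighv1-18 and 22.8% for Ighv1-22. It was 20.9% for Ighv1-15, 52.2% for Ighv1-50 and 57.6% for Ighv1-53. The highest shares were 97.4% for Ighv1-71, 92.5% for Ighv1-72 and 91.8% for Ighv1-62-2. The comparisons of these segments with their relatives are therefore the least certain. The nearest relative of Ighv1-15 is Ighv1-23, which is not among the rows analysed here. The level of a single segment is therefore uncertain to an unknown extent, and the effect of shared reads on the differences was not tested. Somatic mutation of V regions, which also affects alignment, was not measured.

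Along the locus, the 3 rises lay close together. The 47 members were ordered by their RefSeq start positions from the D side and divided into 3 stretches of 16, 16 and 15. The stretch nearest the D segments, Ighv1-2 to Ighv1-36, held all 3 rises and the fall of Ighv1-15. The middle stretch, Ighv1-38 to Ighv1-64, held 0 rises and 2 falls, of Ighv1-50 and Ighv1-53. The far stretch, Ighv1-66 to Ighv1-85, held neither. Median log2 differences were 0.007, -0.10 and -0.10 in that order. The stretch nearest the D segments held 34.2 ± 1.20% of the Ighv1 reads in WT and 39.5 ± 1.28% in cKO, a gain of 5.24 percentage points. The 3 members that rose gained 6.94 points, and the other 13 members of that stretch went from 17.3 ± 1.28% to 15.6 ± 0.322%. The far stretch held 31.8 ± 0.856% and 30.3 ± 0.339%. The middle stretch went from 33.9 ± 0.453% to 30.3 ± 0.947%. The 3 close relatives that rose, Ighv1-18, Ighv1-22 and Ighv1-26, lie at places 9, 12 and 13 from the D side. Between them lie Ighv1-19 (log2 difference 0.19) and Ighv1-20 (-0.10), neither of which was called. At place 8 lies Ighv1-15, which fell and differs from Ighv1-18 at 43 bases. Whether the differences go with place or with sequence was not tested.

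**Figure D5:**
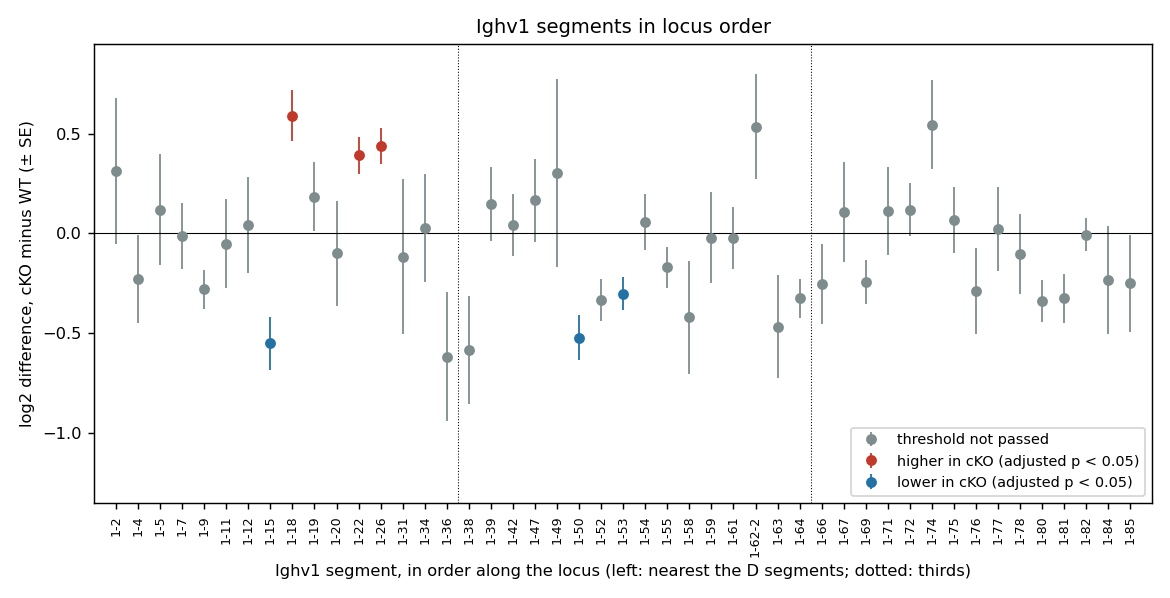
Log2 difference ± SE, cKO minus WT, of the 47 Ighv1 segments in their order along the locus, from the D side on the left, with dotted lines between the 3 stretches and colours for the calls. The 3 red points lie among the 16 segments nearest the D segments, and the far stretch holds no called segment.

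The machinery that brings distant V segments to the D segments was followed in a list of 24 genes for V(D)J recombination and locus contraction, of which 22 were tested. None passed limma's threshold in either direction (0 of 22, with 4 at an unadjusted p under 0.05). Over all genes tested 5.08% rose and 4.97% fell, which is the background for this list and those below. Pax5, needed for contraction of the locus and the most abundant of the list, read 27959 ± 446 in WT and 28444 ± 1694 in cKO, a log2 difference of 0.02 ± 0.06 (limma adjusted p = 0.852). Recombination takes place in bone marrow precursors, so these levels in mature cells do not report on it.

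Transcription of a joined segment starts from its V promoter, whose octamer element binds Oct factors, and is driven by the heavy chain enhancers. Of 15 factors listed for these elements 1 rose and 2 fell. Cebpb, which encodes C/EBPβ, rose from 672 ± 51.1 to 967 ± 72.7 (log2 difference 0.53 ± 0.08, limma adjusted p = 0.00429). Pou2f1, which encodes the octamer factor Oct-1, fell from 3031 ± 60.1 to 2246 ± 188 (-0.44 ± 0.07, limma adjusted p = 0.00369). Irf4, a regulator of plasma cell formation, fell from 9404 ± 2381 to 5663 ± 892 (-0.71 ± 0.16, limma adjusted p = 0.0237).

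Heavy chain constant genes were read beside the segments, since transcripts of a joined V segment run into them. A table by gene does not show whether a read of a constant gene came from such a transcript. Ighm, the constant gene of IgM, read 104089 ± 6147 in WT and 107432 ± 2671 in cKO (0.05 ± 0.08, limma adjusted p = 0.746). Of the 7 constant genes tested 1 rose and 2 fell. Ighg3, for IgG3, rose from 534 ± 25.5 to 903 ± 203 (0.73 ± 0.14, limma adjusted p = 0.0107). Ighg2c and Ighg2b, for IgG2 subclasses, fell by 1.72 and 0.77 on the log2 scale (limma adjusted p = 0.0251 and 0.0302). Ighg2c read 178, 65.3 and 48.9 in the WT libraries, so WT replicate 1 stood far above the rest, and 31.2, 19.9 and 23.7 in cKO. Ighg2b read 488, 409 and 366 in WT and 349, 206 and 203 in cKO. Which V segments were joined to which constant gene cannot be read from a table by gene.

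The receptor is then assembled with its partners. Of 13 genes tested for assembly 3 rose and 0 fell: Pdia4, a protein disulfide isomerase of the endoplasmic reticulum (0.46 ± 0.09, limma adjusted p = 0.0127), Vpreb3 (0.51 ± 0.13, limma adjusted p = 0.0328) and Mzb1, a chaperone of IgM secretion (0.24 ± 0.07, limma adjusted p = 0.0465). Cd79a, the most abundant of the list, differed by -0.01 ± 0.08. In the list for decay of transcripts with premature stops, which also removes failed V(D)J joins, 1 of 15 fell, the helicase gene Upf1 (-0.23 ± 0.06, limma adjusted p = 0.0335), and the most abundant, the kinase gene Smg1, differed by -0.23 ± 0.08 (limma adjusted p = 0.0841). In the list for heavy chain RNA processing 1 of 8 rose, the splicing regulator Hnrnpll (1.17 ± 0.27, limma adjusted p = 0.0227), at only 17.8 ± 3.7 reads in WT and 40.9 ± 4.6 in cKO. Srsf3, the most abundant there, differed by 0.05 ± 0.05.

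Markers of marginal zone, follicular and germinal centre B cells differed between the groups. The background is again 5.08% of all genes that rose and 4.97% that fell. Of 15 marginal zone markers 7 rose and 0 fell, with sums of 155443 to 167752 in WT and of 194098, 158970 and 193195 in cKO replicates 1, 2 and 3. Of 7 follicular markers 0 rose and 5 fell, and cKO replicate 2 again lay nearest to WT (43726, against 44433 to 48536 in WT). Single markers, named after their values had been seen, showed the same library apart. Fcer2a, which encodes CD23, read 3120, 7644 and 3723 in the cKO libraries and 5852 to 6788 in WT. Asb2 read 4804, 2771 and 4267 in cKO and 1425 to 1717 in WT. Of 8 germinal centre markers 0 rose and 3 fell. Their sums were 3006 to 4031 in WT and 2590 to 4047 in cKO, but most of that was Mki67, a gene of all cycling cells and the only one of the 8 above 0. Without it, a split made after the values had been seen, the other 7 summed to 922 to 1657 in WT and 555 to 913 in cKO, without overlap. Of 12 plasma cell markers 1 rose and 2 fell, and their sums were 16506 to 17508 in WT and 16435 to 18000 in cKO. Of 10 markers of B1 and age-associated B cells 0 rose and 1 fell, with sums of 2057 to 2245 and 1515 to 2233. T cell markers were low, and only 3 of the 11 listed were tested. These summed to 64.8 to 92.0 in WT and 40.2 to 52.6 in cKO, without overlap. All 3 had log2 differences below 0, and 0 of them were called. Of 10 myeloid markers none was called. Since B cell subsets are known to differ in V segment use, these values stand beside the Ighv1 differences. Their part in them was not tested.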

How the data were processed

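The table holds 3 WT and 3 cKO libraries. The deposited values are a signal, read counts that the authors scaled library by library: 100% of them were whole multiples of 1 read, within 0.02 of a read, and the factors equalled DESeq2 size factors of the recovered reads. The submitters' processing notes list STAR 2.5.2b, Trimmomatic 0.36, bcl2fastq 2.17 and the build mm9. For the annotation, the counting of reads that fit several segments and the strand, the setting is not given in the sources used here. Identifiers were named with GENCODE M21 (14808 of 14864).

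The test was limma 3.58.1 (lmFit, eBayes with a trend, two-sided, genotype as the only term) on log2(value + 1), which understates the change of low genes, over 14855 genes with a mean of at least 10, with Benjamini-Hochberg adjustment and a threshold of 0.05. Alternatives were edgeR 4.0.16 and DESeq2 1.42.0 on recovered reads, other pseudocounts, filters and scalings, robust moderation, a replicate block and leaving out each library. V regions were aligned with MAFFT 7.526. The fits were tested on simulated data with larger changes than those of the called segments. That test does not show how well differences of their size are found. Sums and shares over members carry no test. Segments were named where called, among the 10 most abundant, among the 5 largest or 5 smallest differences, or among the 5 where 1 library stood furthest out. The members and lists were chosen with earlier results of these data known. Neither promoter nor protein sequences of Ighv1 were used here. Libraries of 1 group differed by more than counting noise (chi-square per gene 6.37 to 12.7), so no pair was taken for repeat deposits of 1 library. This does not show that they are separate mice.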

Additional observations from a re-analysis of the deposited data

How the results depend on the processing

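Pseudocounts of 0.5 and 8, no filter, a mean of at least 50, TMM scaling, size factors without immunoglobulin genes, edgeR and robust moderation each called 3 Ighv1 members higher and 3 lower, as reported. DESeq2 called 3 and 2, with an adjusted p of 0.0589 for Ighv1-53. Scaling to the summed heavy chain V reads, an alternative added after seeing the data, also called 3 and 2. It gave Ighv1-53 an adjusted p of 0.211, turned the family's median log2 difference to 0.03 and that of Ighv1-82 to 0.044, and called 598 genes higher and 353 lower among all genes, against 755 and 739. Leaving out 1 library at a time gave 1 to 3 members higher and 0 to 3 lower, 247 to 787 genes higher and 221 to 943 lower, and a family median from -0.12 to -0.00031. Over the same fits the log2 difference of Ighv1-31 ran from -0.46 to 0.23 and that of Ighv1-82 from -0.078 to 0.042. The summed level ran from -493 to 15.1 normalised reads. Without Ighv1-26, the cKO minus WT difference was -0.64 percentage points in the Ighv1 share of heavy chain V reads, 0.47 points in the share of the next most abundant member and 0.41 in the effective number, since that alternative removes the member with the largest gain. The cause of the other changes was not tested. The replicate block gave 3 members higher and 2 lower (767 and 784 genes over all), with Ighv1-53 at an adjusted p of 0.0515. Libraries with the same number correlated at -0.07, -0.02 and 0.15 in their deviations from the group means. Replicate 3 correlated best with its own number, and replicates 1 and 2 did not. The labels give no pairing, and correlations this small over 3 libraries per group cannot show whether libraries of 1 number were handled together. Members under 100 normalised reads are limited by depth.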
